A study of Mus musculus with 17 samples.

Results

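The mitochondrial carriers of the SLC25 family were followed in the diaphragm of mice with and without a Lewis lung carcinoma (LLC) tumor. Members were taken by symbol, as every row of the deposited table named Slc25a followed by a number, and 47 of the 47643 symbols in the table met this rule. Of these, 38 reached at least 1 TPM (transcripts per 1000000) in at least 3 mice and could be tested, together with 13305 genes in all. The diaphragms came from 17 male C57BL/6J mice, all 4 months of age. The Control group (n = 5) carried no tumor and received mock injections. The Control + rFibcd1 group (n = 5) carried no tumor and was injected with rFibcd1, a recombinant C-terminal piece of mouse Fibcd1. Full-length Fibcd1 is a transmembrane protein, and the study recovered a cleaved C-terminal fragment from the medium of cells made to express it. The LLC group (n = 3) bore LLC tumors under the skin and received mock injections, and the LLC + rFibcd1 group (n = 4) bore the same tumors and received rFibcd1. The tumor model rests on 1 established mouse cell line implanted in all tumor-bearing mice. The titles call the tumor groups LLC, whereas one label field spells them LCC.

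SLC25 proteins sit mostly in the inner mitochondrial membrane, where each carries a small set of metabolites between the cytosol and the matrix, usually by exchange. In muscle, the adenine nucleotide carriers bring ADP into the matrix and release ATP, the phosphate carrier supplies phosphate for ATP synthesis, and the oxoglutarate and aspartate-glutamate carriers are the membrane steps of the malate-aspartate shuttle, which passes reducing equivalents from the cytosol to the respiratory chain. Other members move acylcarnitines, amino acids, iron, glutathione, NAD and coenzyme A, and for some the substrate is not settled.

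Estimated depth was 50.7 to 54.6 M reads per mouse (M, 1000000 reads). The 8 myofiber markers summed to 47470 to 51460 TPM in Control and 41670 to 42970 TPM in LLC, without overlap. Of these markers 3 were called lower. All 8 were at 100 TPM or more in Control, where 38.2% of all genes were called lower. The mitochondrially encoded share of the TPM was 47.1% ± 1.09 (SD, n = 5) in Control and 42.9% ± 1.53 (SD, n = 3) in LLC. Markers of immune and dividing cells were higher in LLC, where 29.7% of all genes tested were called higher. The 6 B cell markers summed to 2.60 to 100.2 TPM in Control and 232.3 to 293.6 TPM in LLC, with all 6 called higher, and all 5 T cell markers were called higher. The 6 macrophage and neutrophil markers summed to 31.3 to 38.7 TPM in Control and 94.4 to 158.4 TPM in LLC, with 4 of the 5 tested called higher, and all 3 tested proliferation markers were called higher. The 5 white adipocyte markers summed to 584.3 to 1703 TPM in Control and 1029 to 3796 TPM in LLC, with overlap and none called. The 5 red cell markers summed to 3848 to 20310 TPM in Control and 14170 to 46940 TPM in LLC, with 1 called higher. No marker of these lists was at 0 throughout a group. In bulk tissue, fewer cells of a type and less RNA per cell cannot be told apart, and the part of these cells in the results below was not tested except where a value is given.

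The family was dominated by a single gene. Slc25a4, the main adenine nucleotide carrier of muscle, averaged 3455 TPM ± 193.6 (SD, n = 5) in Control and ranked 27 among all genes tested. It made up 67.6% ± 1.05 (SD, n = 5) of the summed TPM of the family. The phosphate carrier Slc25a3 followed at 396.6 TPM and the oxoglutarate carrier Slc25a11 at 307.6 TPM, and their ranges over the Control mice did not overlap. The 4 next genes lay close together. These were the aspartate-glutamate carrier Slc25a12 at 138.4 TPM, the orphan carrier Slc25a34 at 125.9 TPM, the carnitine-acylcarnitine carrier Slc25a20 at 118.8 TPM and the second adenine nucleotide carrier Slc25a5 at 106.2 TPM, and neighbors in this order overlapped between mice. The 10 most abundant members were completed by Slc25a39, a glutathione carrier, at 52.4 TPM, Slc25a33, a pyrimidine nucleotide carrier, at 39.1 TPM and Slc25a22, a glutamate carrier, at 32.2 TPM. In all, 7 of the tested members were at 100 TPM or more in Control, 18 at 10 to 100 TPM and 13 under 10 TPM.

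**Figure D1:**
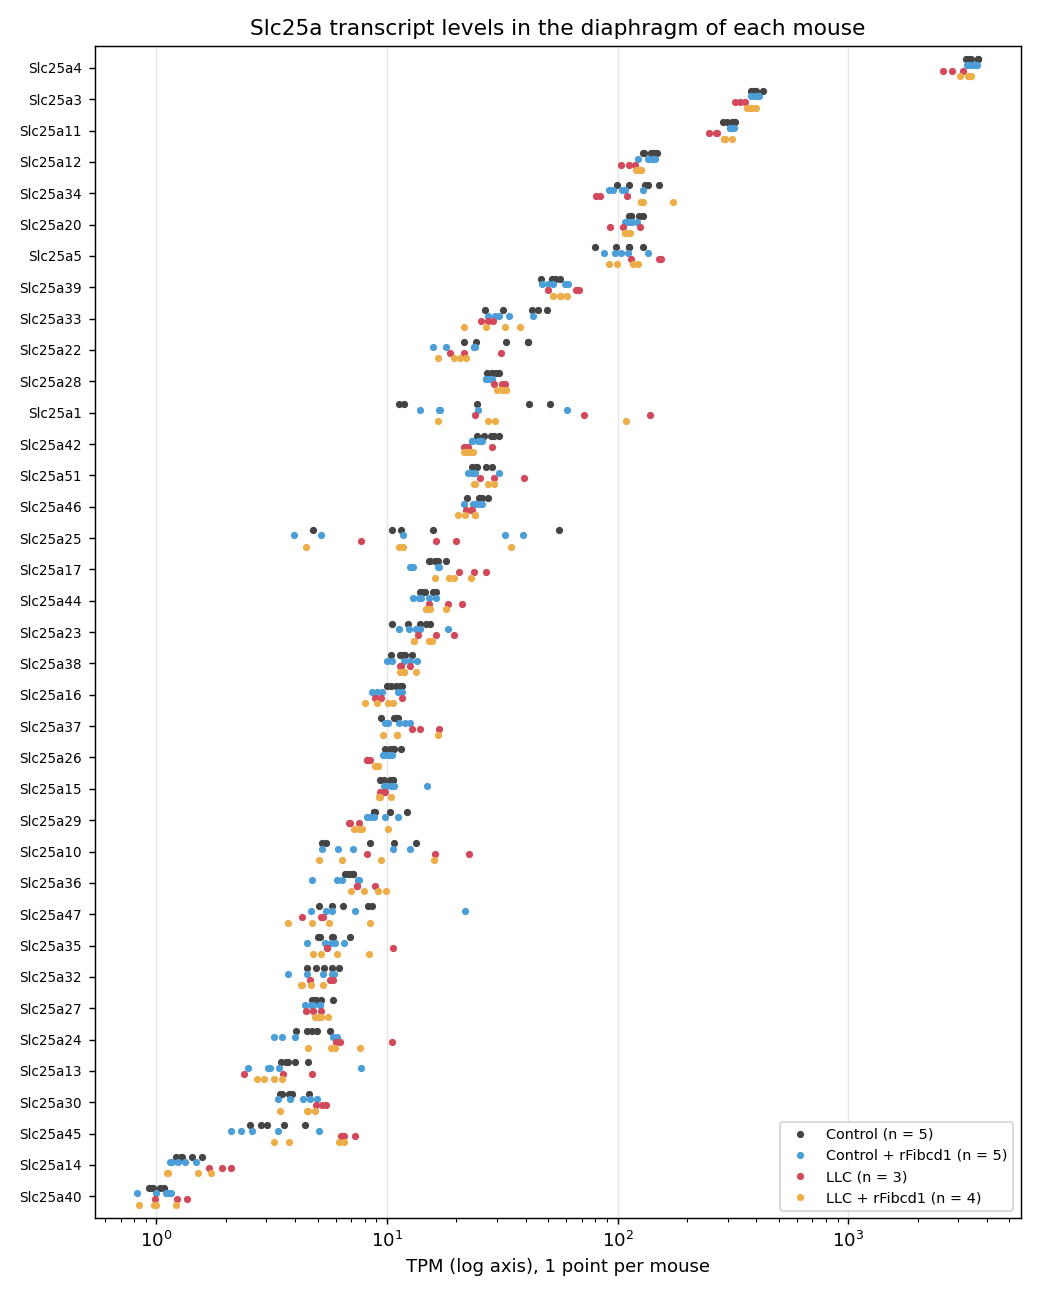
Level of 37 of the 38 tested Slc25a genes in each mouse, in TPM on a log axis, ordered by the Control mean. Slc25a4 stands alone at 2583 to 3671 TPM, and the widest ranges over the 17 mice are those of Slc25a25, Slc25a1, Slc25a47 and Slc25a10, whose highest value is 14.2, 12.2, 5.83 and 4.46 times the lowest.

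The remaining 9 members were too low to test. Slc25a54 was at 0 in every mouse. Slc25a2 (an ornithine carrier), Slc25a18 (a glutamate carrier), Slc25a21 (an oxodicarboxylate carrier), Slc25a31 (the adenine nucleotide carrier of the testis), Slc25a41 (an ATP-Mg/phosphate carrier) and Slc25a43 reached 1 TPM in no mouse. Slc25a48 reached 1.19 TPM in LLC replicate 1 only, and Slc25a53 passed 1 TPM in LLC replicate 3, at 1.17 TPM, and LLC + rFibcd1 replicate 3, at 1.05 TPM. Several untested genes lie beside a tested relative in GENCODE vM21 on GRCm38. Slc25a54 (chr3:109080469-109116687) precedes the ATP-Mg/phosphate carrier Slc25a24 (chr3:109123149-109168457) on the same strand, and Slc25a41 (chr17:57032773-57041654) lies beside Slc25a23 (chr17:57043711-57059863), another ATP-Mg/phosphate carrier. Slc25a43 (chrX:36743659-36777202) lies just before Slc25a5 (chrX:36795651-36798807). In each of these pairs the neighbor was at 3.22 TPM or more in every mouse.

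The spread between mice of a group differed widely among members. The SD within groups, on the log2(TPM + 1) scale, had a median of 0.17 over the members and 0.15 over all genes tested, and 17 of the 38 members had a smaller SD than the median gene. It was 0.05 for Slc25a26, the S-adenosylmethionine carrier, which is smaller than for all but 2.78% of the genes tested, and 0.06 for Slc25a11, Slc25a3 and Slc25a28. The opposite end was held by Slc25a25, a calcium-regulated ATP-Mg/phosphate carrier, with an SD of 1.17 and levels from 3.94 to 55.9 TPM. The citrate carrier Slc25a1 had an SD of 1.01 and levels from 11.3 to 138.3 TPM.

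The comparison of LLC with Control asks what the tumor does to diaphragm transcripts without rFibcd1. By limma with Benjamini-Hochberg adjustment, 13 of the 38 members were called, against 35.8% of all genes tested. Dunn comparisons, a rank test, called 0 of them and 0% of all genes, with 12 members at an unadjusted p under 0.05, against 37.5% of all genes. Of the members, 6 were called higher, against 29.7% of all genes, and 7 lower, against 6.02% of all genes. The members called lower were Slc25a3, Slc25a4, Slc25a11, Slc25a12, Slc25a26, Slc25a29 and Slc25a34. The members called higher were Slc25a14, Slc25a17, Slc25a24, Slc25a30, Slc25a37 and Slc25a45. The groups did not overlap in 13 members, against 40.2% of all genes. The median log2 change was 0.01 over the members and 0.16 over all genes.

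The direction followed the level in Control. Of the 7 members at 100 TPM or more, 5 were called lower and 0 higher, and the remaining 2, Slc25a20 and Slc25a5, had log2 differences of -0.15 and 0.40 without a call. Among all 739 genes at that level, 38.2% were called lower and 18.4% higher. Of the 18 members at 10 to 100 TPM, 1 was called lower (5.56%) and 2 higher (11.1%), against 8.34% and 25.9% of all genes at that level. Of the 13 members under 10 TPM, 1 was called lower and 4 higher. Among all genes under 10 TPM, 1.56% were called lower and 33.1% higher. The summed level of the family was 5112 TPM ± 220.5 (SD, n = 5) in Control, 5069 TPM ± 127.5 (SD, n = 5) in Control + rFibcd1, 4428 TPM ± 271.6 (SD, n = 3) in LLC and 4888 TPM ± 103.7 (SD, n = 4) in LLC + rFibcd1.

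**Figure D2:**
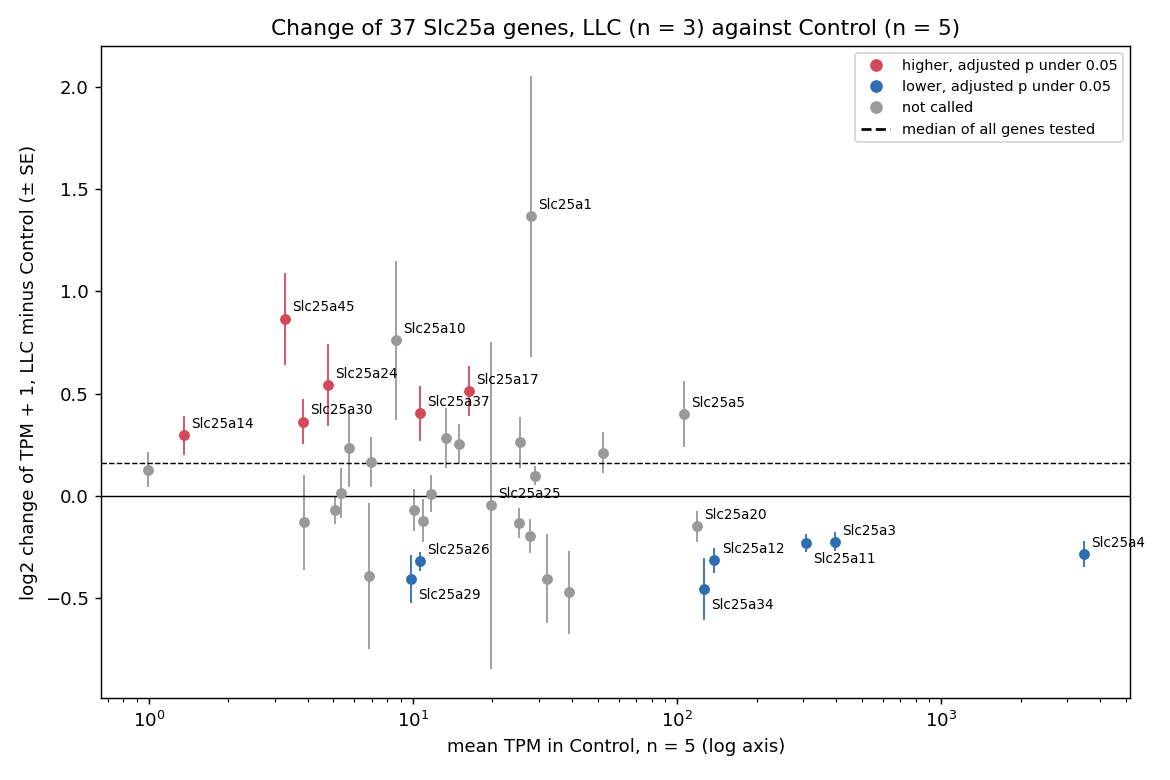
Log2 change of TPM + 1 (LLC minus Control, ± SE) against the mean TPM in Control (log axis) for 37 of the 38 tested members, with the median of all genes tested as a dashed line. The abundant carriers at the right lie below 0 apart from Slc25a5, and the called increases lie at lower levels.

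The scaling of the libraries bears on the increases. The median log2 difference over all genes was 0.16 on the deposited scale, 0.03 after median-ratio scaling, 0.08 after rescaling without mitochondrially encoded genes and -0.10 after quantile normalization. All 7 members called lower kept their call under all 3 scalings, but only 2 of the 6 called higher did, Slc25a17 and Slc25a45. All 3 scalings moved the median of all genes downward, which favors lower calls and works against higher ones. None moved it upward, so the decreases were not tested in that direction. The split of calls, 6 higher and 7 lower as deposited, became 2 and 13, 3 and 11, and 2 and 16 in the same order. Over all genes the split turned over as well, from 3958 higher and 801 lower as deposited to 2297 and 1703, 2629 and 1465, and 1510 and 3175. Leaving out LLC replicate 3 left 1 member called, Slc25a26, and reduced the calls over all genes from 4759 to 24. Leaving out LLC replicate 2 gave 20 members and 4915 genes in all.

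Among the carriers of adenine nucleotides and phosphate, Slc25a4 fell by 17.8%, where this and the other percent changes are on the TPM + 1 scale. Its levels in Control replicates 1 to 5 were 3300, 3253, 3645, 3405 and 3671 TPM, and in LLC replicates 1 to 3 they were 2810, 3142 and 2583 TPM. Every LLC mouse lay below every Control mouse. The log2 change was -0.28 ± 0.06 (SE; adjusted p = 0.0106). Slc25a3 fell by 14.3%, from 384.1, 377.9, 394.9, 399.7 and 426.3 TPM to 339.6, 356.1 and 322.8 TPM, again without overlap (log2 change -0.22 ± 0.05 SE, adjusted p = 0.00969). Slc25a5, the adenine nucleotide carrier of dividing and non-muscle cells, was not called. It measured 111.6, 112.5, 98.1, 80.2 and 128.4 TPM in Control and 154.6, 113.9 and 151.4 TPM in LLC, with overlap (log2 difference 0.40 ± 0.16 SE, adjusted p = 0.0623). The ratio of Slc25a4 to Slc25a5 was 28.6 to 42.5 in Control and 17.1 to 27.6 in LLC. The 2 genes are close relatives, and how reads matching both were counted is not given in the sources used here.

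The calcium-regulated ATP-Mg/phosphate carriers shift the adenine nucleotide pool between matrix and cytosol. Slc25a24 was called higher, from 4.77 TPM ± 0.606 (SD, n = 5) to 7.59 TPM ± 2.53 (SD, n = 3), with an adjusted p of 0.0463, and it lost the call in 9 of the 17 fits that leave out a mouse and in 10 of 11 other settings. Its log2 change was 0.54, and 0.31 without LLC replicate 3. Slc25a23 had a log2 difference of 0.28 ± 0.15 (SE; adjusted p = 0.137) and Slc25a25 one of -0.04 ± 0.80 (SE; adjusted p = 0.969). Slc25a25 covered 4.80 to 55.9 TPM in Control alone, so a difference of the size seen for its relatives was not detectable against the spread.

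The promoters of the most abundant carriers called lower, and of the peroxisomal carrier Slc25a17, which was called higher, are shown as examples of both directions. Each runs from 250 bases before to 50 bases after the RefSeq start on GRCm38.p6, 5′ to 3′ on the strand of the gene. Capitals mark matches to the short motifs described after the sequences, which were searched on both strands and of which none contains another.
Slc25a4, chr8:46211013-46211312, minus strand: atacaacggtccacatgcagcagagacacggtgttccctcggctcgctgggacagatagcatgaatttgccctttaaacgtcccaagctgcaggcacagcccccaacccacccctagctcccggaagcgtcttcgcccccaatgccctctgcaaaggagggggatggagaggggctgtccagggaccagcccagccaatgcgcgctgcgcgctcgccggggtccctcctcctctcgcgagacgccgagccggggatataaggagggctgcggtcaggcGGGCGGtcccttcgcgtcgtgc
Slc25a3, chr10:91123918-91124217, minus strand: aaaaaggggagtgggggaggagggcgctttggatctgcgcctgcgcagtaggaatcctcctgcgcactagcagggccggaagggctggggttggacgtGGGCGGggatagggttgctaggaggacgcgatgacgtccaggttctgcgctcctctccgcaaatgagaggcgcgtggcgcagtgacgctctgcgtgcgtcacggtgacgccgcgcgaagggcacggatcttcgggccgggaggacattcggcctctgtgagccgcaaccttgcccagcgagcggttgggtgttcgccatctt
Slc25a11, chr11:70646990-70647289, minus strand: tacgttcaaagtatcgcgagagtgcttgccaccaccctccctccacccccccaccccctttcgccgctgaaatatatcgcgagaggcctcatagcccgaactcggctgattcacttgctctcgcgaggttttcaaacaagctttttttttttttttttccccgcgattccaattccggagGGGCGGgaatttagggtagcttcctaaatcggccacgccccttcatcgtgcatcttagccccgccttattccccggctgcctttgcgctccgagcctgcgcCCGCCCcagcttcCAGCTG
Slc25a17, chr15:81360716-81361015, minus strand: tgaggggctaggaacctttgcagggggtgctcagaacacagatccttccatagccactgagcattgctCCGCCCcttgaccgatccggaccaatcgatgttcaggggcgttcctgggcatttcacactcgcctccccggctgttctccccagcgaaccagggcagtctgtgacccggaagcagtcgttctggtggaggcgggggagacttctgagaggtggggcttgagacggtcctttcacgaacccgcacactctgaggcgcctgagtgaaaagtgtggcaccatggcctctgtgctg

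A GC box, the letters GGGCGG, was present in each of these 4 windows and in 30 of the 36 members with a promoter used, or 83.3%. Windows on chromosome 18 or of another length were left out, for the members and for all promoters alike. It was present in 35.9% of 27025 promoters of the same length. Of the members called, 5 of 6 called lower and 5 of 5 called higher with a promoter used had one, so it did not separate the directions. The TATA box, searched as TATAAA, was found in 1 member (2.78%), the untested Slc25a18, and in 14.2% of all promoters. The E-box of myogenic factors, searched as CAGCTG, was found in 4 members, namely Slc25a11, Slc25a24, Slc25a34 and Slc25a53 (11.1% against 16.1% of all promoters). The element bound by estrogen-related receptors, searched as AAGGTCA, was found in 1 member, Slc25a34 (2.78% against 4.66%). A match describes these letters in this window and shows no binding.

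Among the carriers of di- and tricarboxylates, Slc25a11 fell by 14.8%. It measured 296.8, 286.8, 318.9, 313.2 and 322.2 TPM in Control and 267.3, 270.6 and 247.9 TPM in LLC. The groups did not overlap, and the log2 change was -0.23 ± 0.04 (SE; adjusted p = 0.00904). The citrate carrier Slc25a1, which exports citrate for fatty acid synthesis, and the dicarboxylate carrier Slc25a10 had large differences and no call. Slc25a1 measured 50.9, 41.4, 11.3, 24.5 and 11.9 TPM in Control and 138.3, 24.1 and 71.4 TPM in LLC (log2 difference 1.37 ± 0.69 SE, adjusted p = 0.126). LLC replicate 2 lay within the Control range. For Slc25a10 the log2 difference was 0.76 ± 0.39 (SE; adjusted p = 0.133).

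Among the amino acid carriers, Slc25a12 fell by 19.6%. It measured 129.5, 130.6, 144.4, 148.4 and 139.2 TPM in Control and 111.6, 118.9 and 103.0 TPM in LLC, without overlap (log2 change -0.31 ± 0.06 SE, adjusted p = 0.00926). Slc25a29, a carrier of basic amino acids, measured 8.81, 8.83, 10.3, 8.91 and 12.3 TPM in Control and 6.92, 7.57 and 6.85 TPM in LLC, without overlap (log2 change -0.41 ± 0.12 SE, adjusted p = 0.02002). Its call was lost in 2 of the 17 fits that leave out a mouse, without LLC replicate 1 or 3. The other 5 tested members of this group were not called. The log2 difference was -0.40 ± 0.22 (SE; adjusted p = 0.151) for the glutamate carrier Slc25a22 and 0.25 ± 0.10 (SE; adjusted p = 0.0548) for Slc25a44, a carrier of branched-chain amino acids. It was -0.13 for Slc25a13, the second aspartate-glutamate carrier, -0.07 for the ornithine carrier Slc25a15 and 0.01 for the glycine carrier Slc25a38.

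Slc25a20, which brings acylcarnitines into the matrix for fatty acid oxidation, measured 112.3 to 129.5 TPM in Control and 92.8 to 125.0 TPM in LLC. The groups overlapped (log2 difference -0.15 ± 0.08 SE, adjusted p = 0.131).

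Among the carriers of cofactors and nucleotides, Slc25a26, which imports the methyl donor S-adenosylmethionine, had the smallest p of the family. It measured 9.80, 10.7, 11.5, 10.3 and 10.7 TPM in Control and 8.45, 8.23 and 8.21 TPM in LLC. The 3 LLC mice lay close together and below all Control mice (log2 change -0.32 ± 0.05 SE, adjusted p = 0.00615). Slc25a17, which carries coenzyme A, FAD and NAD into peroxisomes rather than mitochondria, rose by 42.7%. It measured 16.1, 16.7, 15.4, 18.1 and 15.3 TPM in Control and 23.9, 20.6 and 26.9 TPM in LLC, without overlap (log2 change 0.51 ± 0.12 SE, adjusted p = 0.0118). Of the remaining 7, none was called. The log2 difference was -0.47 ± 0.20 (SE; adjusted p = 0.0798) for the pyrimidine nucleotide carrier Slc25a33, -0.19 ± 0.08 (SE; adjusted p = 0.0740) for the coenzyme A carrier Slc25a42 and 0.26 ± 0.13 (SE; adjusted p = 0.110) for the NAD carrier Slc25a51. The folate carrier Slc25a32 was at 0.02 and Slc25a16 at -0.12. Slc25a36, the other pyrimidine nucleotide carrier, was at 0.17 without a call, and its groups did not overlap.

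Among the iron and glutathione carriers, Slc25a37 (mitoferrin 1, the iron importer of red cell precursors) rose by 32.4%. It measured 10.97, 11.15, 9.40, 10.73 and 10.99 TPM in Control and 13.9, 12.8 and 16.8 TPM in LLC, without overlap (log2 change 0.40 ± 0.13 SE, adjusted p = 0.0308). The call was lost in 4 of the 17 fits that leave out a mouse (without Control replicate 3 or 4, or LLC replicate 1 or 3) and under all 3 other scalings. The highest value fell in LLC replicate 3, the mouse with the most red cell transcripts, at 168.3 TPM of Alas2, the heme synthesis enzyme of red cell precursors, against 11.6 to 60.2 TPM in Control. Other mice did not all follow this order. LLC + rFibcd1 replicate 3 had 16.6 TPM of Slc25a37 with 64.1 TPM of Alas2. LLC + rFibcd1 replicate 4 had 11.05 TPM of Slc25a37 with 73.9 TPM of Alas2. The log2 difference was 0.10 ± 0.05 (SE; adjusted p = 0.109) for Slc25a28, the mitoferrin of other tissues, 0.21 ± 0.10 (SE; adjusted p = 0.107) for Slc25a39 and 0.13 for Slc25a40, the other glutathione carrier, which was the lowest tested member. Among the carriers resembling uncoupling proteins, Slc25a30 rose from 3.83 TPM ± 0.458 (SD, n = 5) to 5.20 TPM ± 0.244 (SD, n = 3; adjusted p = 0.0218) and Slc25a14 from 1.36 TPM ± 0.144 (SD, n = 5) to 1.90 TPM ± 0.206 (SD, n = 3; adjusted p = 0.0279). Both calls were lost under the other scalings, and the log2 difference of Slc25a14 was -0.03 after quantile normalization. Leaving out a mouse ended the call of Slc25a14 in 4 of the 17 fits and that of Slc25a30 in 2. Slc25a27, the most abundant of these carriers in Control, was at -0.07.

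Among the members of the outer membrane and those without a settled substrate, Slc25a34 fell by 26.9%. It measured 112.1, 99.5, 151.0, 131.7 and 135.3 TPM in Control and 80.8, 110.2 and 84.0 TPM in LLC. LLC replicate 2 lay within the Control range (log2 change -0.45 ± 0.15 SE, adjusted p = 0.0325), and the call was lost in 5 of the 17 fits that leave out a mouse (without Control replicate 3, 4 or 5, or LLC replicate 1 or 3) and with the myofiber score. Slc25a45 had the largest called change of the family, a rise of 82.3% on the TPM + 1 scale, which is smaller than that of the TPM itself for a gene this low. It measured 3.56, 4.43, 2.84, 3.01 and 2.55 TPM in Control and 6.34, 6.52 and 7.30 TPM in LLC, without overlap (log2 change 0.87 ± 0.23 SE, adjusted p = 0.0139). Over the 11 other settings the change of Slc25a45 ran from 0.27 to 1.04. The call was lost in 4 of them, the B cell score (mean log2 level of the B cell markers) among them. In LLC + rFibcd1 replicates 1 to 4, Slc25a45 was at 3.75, 6.19, 6.49 and 3.22 TPM. The B cell scores of these mice were 1.822, 4.145, 5.233 and 2.005, and the relation was not tested. The log2 difference was -0.13 for the outer membrane protein Slc25a46, -0.39 for Slc25a47 and 0.23 for Slc25a35, none of them called.

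**Figure D3:**
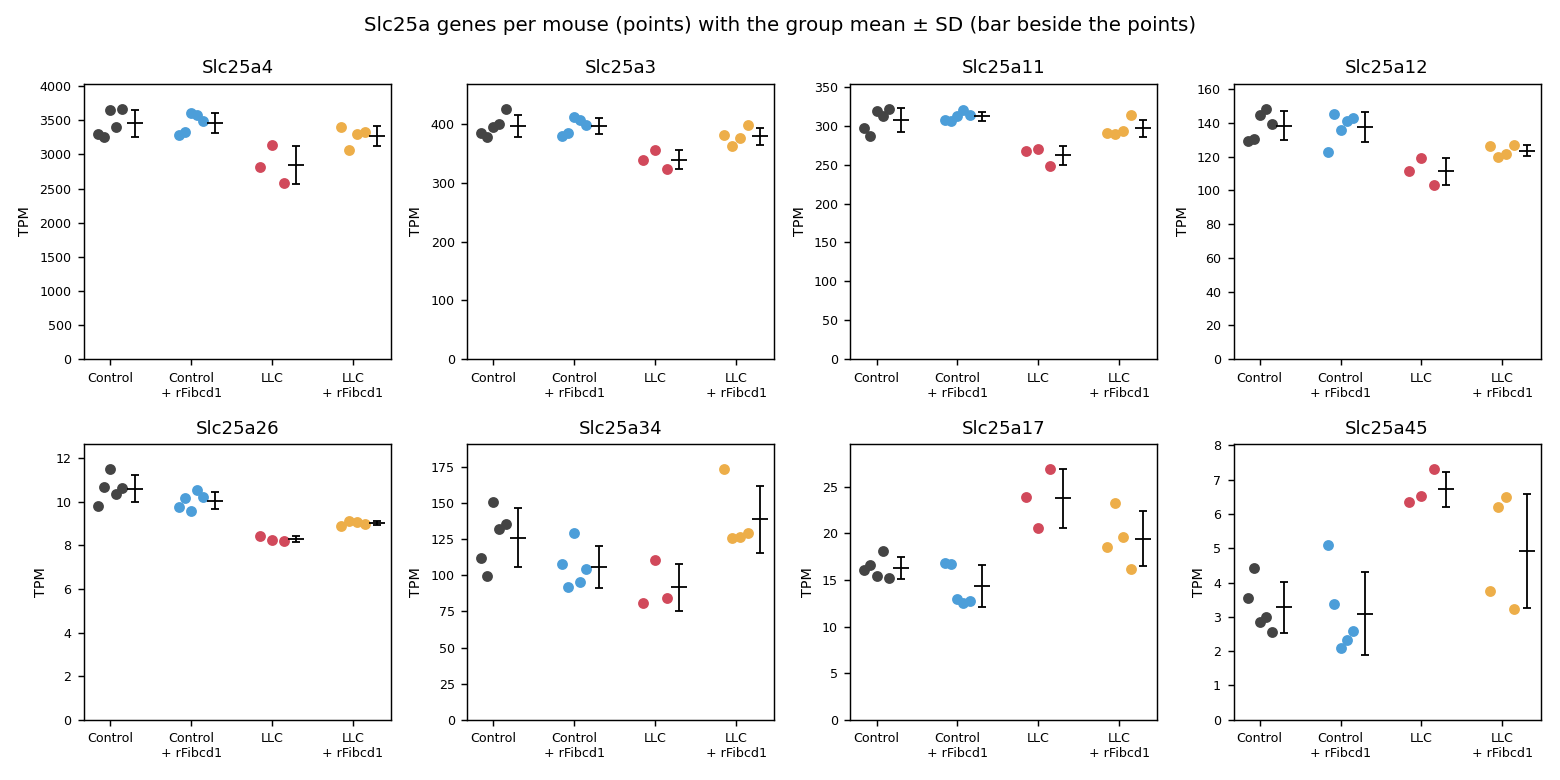
TPM of 8 Slc25a genes in each mouse by group, on axes that start at 0, with the group mean ± SD beside the points. In 7 of these genes the LLC points lie apart from Control, Slc25a34 being the exception, and in the 6 genes that fell the LLC + rFibcd1 mean lies above the LLC mean.

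Most genes that work with the abundant carriers were also called lower. Of 9 partner enzymes, 8 were called lower in LLC, against 6.02% of all genes. At 100 TPM or more in Control, 7 of 8 were called lower, against 38.2% of all genes at that level. The 9 had a median log2 change of -0.23 against 0.16 over all genes. They included Mdh1 and Got1, cytosolic enzymes of the malate-aspartate shuttle, at -0.23 ± 0.05 (SE; adjusted p = 0.00969) and -0.32 ± 0.08 (SE; adjusted p = 0.0130), and the mitochondrial creatine kinase Ckmt2, which works beside Slc25a4, at -0.32 ± 0.06 (SE; adjusted p = 0.00964). Only Cpt2, an enzyme of the carnitine shuttle, was not called (-0.15, adjusted p = 0.133). Of 17 other mitochondrial transport genes, 7 were called lower and 2 higher, against 6.02% and 29.7% of all genes. In Control, 5 of the 17 were at 100 TPM or more, and all 5 were called lower, against 38.2% of all genes at that level. The outer membrane channels Vdac1, Vdac2 and Vdac3 and the pyruvate carrier subunits Mpc1 and Mpc2 were among those called lower, with Vdac1 at -0.30 ± 0.05 (SE; adjusted p = 0.00734). The sideroflexin Sfxn3 was called higher at 0.88 ± 0.20 (SE; adjusted p = 0.0111), as was the sodium-calcium exchanger Slc8b1. Of 5 family members that carry other symbols, only Ucp2 was called higher (1.19 ± 0.29 SE, adjusted p = 0.0122), against 29.7% of all genes. Of 8 myofiber markers, 3 were called lower, namely Ckm, Tnnt3 and Myh1. All 8 were at 100 TPM or more in Control, where 38.2% of all genes were called lower. The other 5 were not called, and Myh4 averaged 904.9 TPM in Control and 1313 TPM in LLC.

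The comparison of LLC + rFibcd1 with LLC asks whether rFibcd1 changes the tumor-bearing diaphragm. By limma, 0 of the 38 members were called, against 0.113% of all genes tested. At an unadjusted p under 0.05, 9 members passed, against 22.7% of all genes, and Dunn comparisons gave 0 calls over all genes and 2 members at an unadjusted p under 0.05, against 7.17% of all genes. The median log2 change was -0.11 over the members and -0.11 over all genes. The groups did not overlap in 6 members, against 14.6% of all genes, and these were Slc25a3, Slc25a11, Slc25a12, Slc25a26 and Slc25a34, which were higher with rFibcd1, and Slc25a30, which was lower. The comparison shares its LLC mice with the one above, so opposite signs in both are not independent.

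The 5 members with the smallest p had these values. Slc25a11 measured 290.4, 289.8, 293.5 and 313.6 TPM in LLC + rFibcd1 replicates 1 to 4, against 247.9 to 270.6 TPM in LLC (log2 difference 0.18, 95% interval 0.08 to 0.28, adjusted p = 0.130). Slc25a34 measured 173.2, 125.8, 126.2 and 129.1 TPM against 80.8 to 110.2 TPM (0.59, interval 0.25 to 0.93, adjusted p = 0.137). Slc25a3 measured 381.1, 362.3, 375.8 and 397.8 TPM against 322.8 to 356.1 TPM (0.16, interval 0.06 to 0.26, adjusted p = 0.165). In these 3 genes every rFibcd1-injected tumor-bearing mouse was above every LLC mouse, without a call. Slc25a4 measured 3397, 3059, 3297 and 3336 TPM against 2583 to 3142 TPM, with overlap (0.21, interval 0.07 to 0.34, adjusted p = 0.173). Slc25a14 measured 1.12, 1.52, 1.72 and 1.11 TPM against 1.69 to 2.10 TPM, with overlap (-0.30, interval -0.51 to -0.09, adjusted p = 0.182). For Slc25a1 the interval ran from -2.35 to 0.72.

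In tumor-free mice, Control + rFibcd1 against Control gave 0 members called, against 0% of all genes. At an unadjusted p under 0.05, 2 members passed, against 4.39% of all genes, and the Dunn comparisons gave 0 calls over all genes and 1 member at an unadjusted p under 0.05, against 2.42% of all genes. Slc25a22 averaged 21.1 TPM ± 3.89 (SD, n = 5) with rFibcd1 and 32.2 TPM ± 9.02 (SD, n = 5) without (log2 difference -0.56, 95% interval -0.96 to -0.15, adjusted p = 0.927). Slc25a42 averaged 24.5 TPM ± 1.082 (SD, n = 5) and 27.8 TPM ± 2.37 (SD, n = 5), with a log2 difference of -0.17 (adjusted p = 0.927). The abundant carriers had close means: Slc25a4 averaged 3460 TPM ± 147.9 (SD, n = 5) and Slc25a3 396.4 TPM ± 14.0 (SD, n = 5) with rFibcd1.

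LLC + rFibcd1 against Control gave 1 member called, against 3.08% of all genes. It was Slc25a26, at 8.91, 9.13, 9.10 and 8.98 TPM, all below the Control range of 9.80 to 11.5 TPM (log2 change -0.21 ± 0.04 SE, adjusted p = 0.0174). The call was lost after quantile normalization (adjusted p = 0.0595), with Dunn comparisons and in a fit of only these 2 groups. Slc25a42 came next, at 21.5 to 23.6 TPM against 24.5 to 30.5 TPM without overlap (log2 difference -0.29 ± 0.08 SE, adjusted p = 0.0510).

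The interaction asks whether the difference with rFibcd1 depends on the tumor, that is, differs between tumor-bearing and tumor-free mice. It gave 0 members called, against 0% of all genes, and 6 members at an unadjusted p under 0.05, against 8.58% of all genes. Slc25a34 had the smallest p of the family (interaction 0.84 ± 0.21 SE on the log2 scale, unadjusted p = 0.00101, adjusted p = 0.166). Its mean was 125.9 TPM in Control, 105.6 TPM in Control + rFibcd1, 91.6 TPM in LLC and 138.6 TPM in LLC + rFibcd1. The next 4 were Slc25a26, Slc25a11, Slc25a3 and Slc25a4, with interactions of 0.18, 0.16, 0.16 and 0.20 and adjusted p from 0.363 to 0.490.

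The tumor effect was measured a second time in mice that the LLC and Control groups did not include. LLC + rFibcd1 against Control + rFibcd1 gave 2 members called, Slc25a17 and Slc25a28, against 8.06% of all genes. Both calls were lost under all 3 other scalings, with adjusted p of 0.0556 to 0.0613 for Slc25a17 and 0.130 to 0.403 for Slc25a28. Leaving out a mouse ended the call of Slc25a17 in 6 of 17 fits and that of Slc25a28 in 1, without LLC + rFibcd1 replicate 2. Of the 13 members called in LLC against Control, 12 had the same sign in these mice (92.3%, and 94.1% of all genes called there), Slc25a34 being the exception, and 1 was called again (7.69%, and 12.5% of all genes). All 13 changes were smaller, as were 93.4% of those of all genes called there. Slc25a17 averaged 19.4 TPM ± 2.94 (SD, n = 4) in LLC + rFibcd1 and 14.4 TPM ± 2.20 (SD, n = 5) in Control + rFibcd1 (log2 change 0.41 ± 0.11 SE, adjusted p = 0.0368). Slc25a28 averaged 31.7 TPM ± 1.33 (SD, n = 4) and 27.6 TPM ± 0.685 (SD, n = 5; log2 change 0.19 ± 0.04 SE, adjusted p = 0.0158). Slc25a12 and Slc25a26 kept 95% intervals below 0, at -0.27 to -0.03 and -0.23 to -0.05, without a call. For Slc25a4 the interval was -0.20 to 0.04, and for Slc25a34 it was 0.09 to 0.68.

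**Figure D4:**
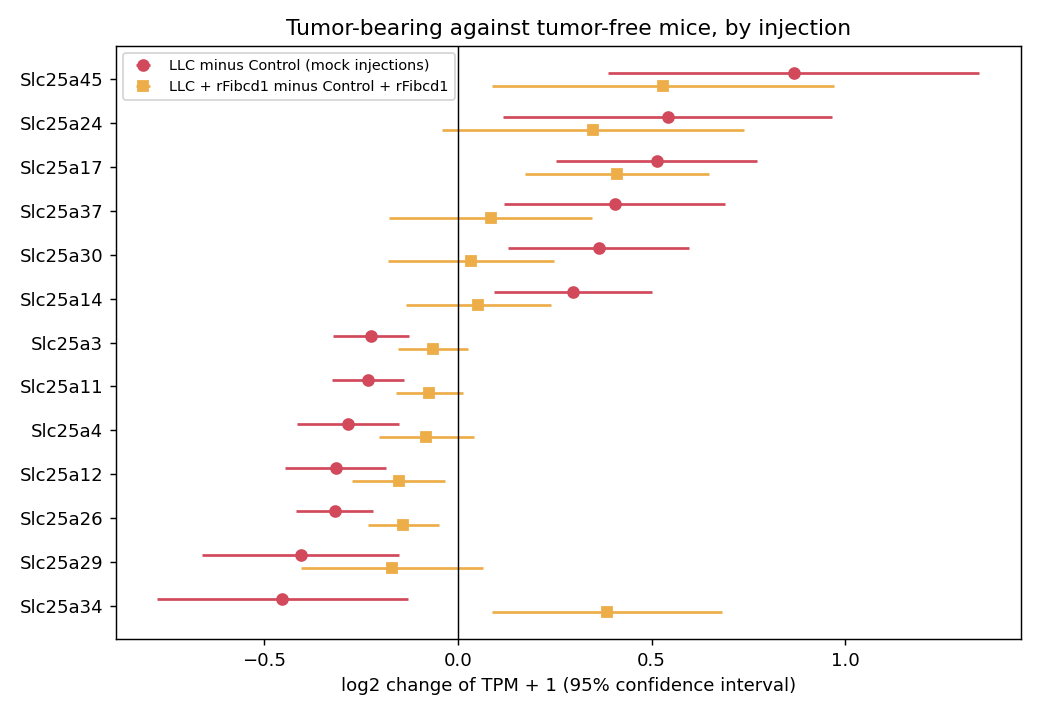
Log2 change of TPM + 1 with its 95% interval for the 13 members called in LLC minus Control, beside the same genes in the mice injected with rFibcd1, which are other animals. Apart from Slc25a34, the squares lie on the same side of 0 as the circles and nearer to it.

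With all 7 tumor-bearing mice set against all 10 tumor-free mice, 13 members were called, against 44.8% of all genes, 6 higher and 7 lower, against 38.8% and 5.98% of all genes. Slc25a26 (-0.22 ± 0.03 SE, adjusted p = 0.000547), Slc25a12 (-0.22 ± 0.04 SE, adjusted p = 0.00200), Slc25a11 (-0.14 ± 0.03 SE, adjusted p = 0.00349), Slc25a3 (-0.13 ± 0.03 SE, adjusted p = 0.00536), Slc25a4 (-0.17 ± 0.04 SE, adjusted p = 0.00709), Slc25a29 and Slc25a42 were called lower. Slc25a17 (0.44 ± 0.08 SE, adjusted p = 0.00201), Slc25a45 (0.67 ± 0.15 SE, adjusted p = 0.00465), Slc25a28, Slc25a24, Slc25a36 and Slc25a44 were called higher. Slc25a44 lost its call in 10 of the 17 fits that leave out a mouse and in 8 of 9 other settings, and Slc25a42 in 6 of the 17 and 3 of the 9. Slc25a24 lost it in 1 of the 17, without LLC replicate 3, and in 5 of the 9. Slc25a28 and Slc25a36 kept it in all 17 and lost it in 4 and 5 of the 9. After median-ratio scaling the split was 3 higher and 13 lower, after rescaling without mitochondrially encoded genes 5 and 11, and after quantile normalization 2 and 16. Over all genes it went from 5167 higher and 796 lower to 2766 and 2036, 3544 and 1519, and 1819 and 3325. Adding the B cell score to the model left 1 member called in this comparison, with 666 genes in all, and 0 in LLC against Control, where over all genes 9 remained. That score was 4.95 to 5.29 in LLC and 0.410 to 3.77 in Control, without overlap, so the score and the tumor cannot be told apart in LLC against Control. With the myofiber score as a covariate, added after seeing the data, 6 members and 2007 genes in all were called in tumor-bearing against tumor-free mice, and 10 members and 3927 genes in LLC against Control. With the adipocyte score 8 members and 2464 genes were called in tumor-bearing against tumor-free mice.

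Some members varied with transcripts of other tissues. Across the 17 mice, Slc25a1 followed the mean log2 level of the 5 white adipocyte markers (Pearson r = 0.956, permutation p = 1e-05, adjusted p = 3e-05; Spearman rho = 0.973, permutation p = 1e-05, adjusted p = 3e-05). These p are the smallest that 100000 permutations can give, and 6 such relations were computed, chosen after seeing the data. Without the 2 mice farthest from the median score r was 0.931, and after subtracting group means it was 0.944. Slc25a10 behaved alike (r = 0.915, rho = 0.914, permutation p = 1e-05 and adjusted p = 3e-05 for both; r = 0.872 without the 2 farthest mice and 0.905 after subtracting group means). The 3 highest Slc25a1 values, 138.3, 108.8 and 71.4 TPM in LLC replicate 1, LLC + rFibcd1 replicate 2 and LLC replicate 3, came with 436.5, 202.7 and 218.0 TPM of the adipocyte hormone Adipoq. The lowest, 11.3 TPM in Control replicate 3, came with 27.6 TPM. With the adipocyte score as a covariate, added after seeing the data, 1 member was called in LLC against Control and 107 genes in all.

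Slc25a47, a carrier known from liver, stood apart in Control + rFibcd1 replicate 2, at 21.7 TPM against 3.73 to 8.59 TPM in the other 16 mice. That mouse had 1934 TPM of Alb, the serum albumin of hepatocytes, against 0.221 to 171.0 TPM elsewhere. The 8 liver transcripts, a list added after seeing this mouse, summed to 4388 TPM there and to 48.3 to 589.8 TPM in the others. Across the mice Slc25a47 followed the liver score (r = 0.866, permutation p = 0.00015, adjusted p = 0.000300; rho = 0.510, permutation p = 0.0395, adjusted p = 0.0395), with r = 0.596 without the 2 farthest mice and 0.891 after subtracting group means. These p include the mouse that prompted the list, so they are no independent test. The same mouse had the highest Slc25a13, at 7.72 TPM, and the highest Slc25a15, at 14.96 TPM, of all 17, both of which serve the urea cycle in liver. Leaving it out gave 12 members called in LLC against Control.

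**Figure D5:**
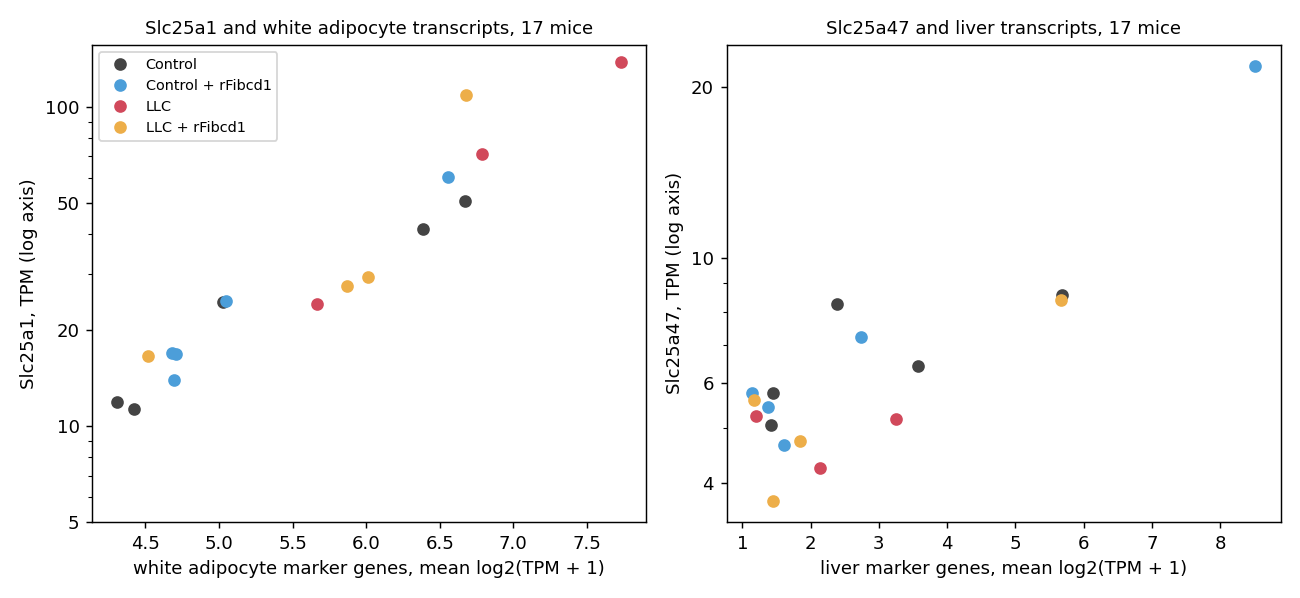
TPM (log axis) of Slc25a1 against the mean log2(TPM + 1) of 5 white adipocyte markers (left) and of Slc25a47 against that of 8 liver transcripts (right), 1 point per mouse colored by group. Slc25a1 climbs along the adipocyte score in all groups, and the single point at the upper right for Slc25a47 is Control + rFibcd1 replicate 2.

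Slc25a17 followed the B cell score at r = 0.777 (permutation p = 0.00027, adjusted p = 0.000405), which was 0.544 after subtracting group means. Slc25a37 followed the red cell score at r = 0.610 (permutation p = 0.00929, adjusted p = 0.0111), which was 0.415 after subtracting group means. For Slc25a4 and the myofiber score r was 0.446 (permutation p = 0.0747, adjusted p = 0.0747), which was 0.399 after subtracting group means. The rho of the 3 were 0.777, 0.539 and 0.554, with permutation p of 0.00043, 0.0278 and 0.0235 and adjusted p of 0.000860, 0.0333 and 0.0333, and r without the 2 farthest mice was 0.733, 0.618 and 0.348. In these and the other relations, permutations ran over all mice without regard to group. Their p therefore also reflects differences between groups, and none was computed after subtracting group means. Slc25a17 and all 6 B cell markers were themselves called higher in LLC.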

How the data were processed

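RNA of 17 diaphragms was measured by mRNA sequencing, and each mouse took its group and replicate number from its title. The mice are separate samples by their labels. Tumor cells were implanted under the skin of both flanks, and rFibcd1 or mock was injected into the peritoneal cavity. The authors trimmed and filtered paired reads, aligned them to GRCm38 (mm10) and obtained a value for each gene with CLC Genomics Workbench. These deposited values are in TPM, which the authors scaled to the same sum in each mouse with mitochondrially encoded genes included, so that a smaller mitochondrial share raises all other genes. Gene annotation, counting by strand and the treatment of reads matching several genes are not given in the sources used here. The labels and the study's methods name different sequencers and library kits.

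Values were transformed as log2(TPM + 1), which understates changes of low genes. A gene was kept where 3 or more mice had at least 1 TPM (13305 of 47643 rows, of which 24693 were at 0 throughout). The 4 groups entered 1 model in limma 3.58.1 (R 4.3.3) with an expression trend and 13 residual degrees of freedom, 6 contrasts were tested two-sided, and Benjamini-Hochberg adjustment ran over the whole set of genes tested, with a call at an adjusted p under 0.05. A further contrast, LLC + rFibcd1 minus Control + rFibcd1, was added after seeing the data because it shares no mouse with LLC minus Control. Relations across mice used 100000 permutations that did not keep the groups apart. The steps were tested on simulated data. The values of 1 tested member are not reported here, but it stayed in every fit and count of members. Named genes were the members called in a contrast (or, where none was, the 5 with the smallest p), the 10 most abundant in Control, the most abundant of each role and those never at 1 TPM. Other members of each role are given in brief so that every member is accounted for. The members, lists and tests were chosen with earlier results of these data known.

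Depth was estimated from the steps of low TPM values with exon lengths of GENCODE vM21 (45090 symbols matched, 94.6%). Between 81.3% and 83.9% of low values lay within 0.02 of a whole read, against 4.0% for random values, and 1 TPM in a gene of 1 kb stood for 23.9 to 26.7 reads. Read counts were not recovered for nearly all genes, so no count test was run. No 2 columns were identical. Same-numbered mice of different groups did not deviate together (22 pairs, 4 with r over 0.1, median -0.061), so the main model has no replicate block. Alternatives were a pseudocount of 0.1, no filter, 3 scalings, Dunn comparisons, only the groups compared, the block, marker scores as covariates and leaving out each mouse.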

Additional observations from a re-analysis of the deposited data

Results flagged for a closer look

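The highest or lowest mouse of a group was set against its gap to the nearest other mouse, as a share of the range of the group (Dixon's ratio), in 111 groups of 4 or 5 mice over 37 of the 38 tested members. Such a ratio passes its 95% limit by chance in about 1 in 20 groups, and 12 passed here. The LLC group, with 3 mice, was not tested.

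In Control + rFibcd1 replicate 1, Slc25a1 was at 60.4 TPM against 13.9 to 24.7 TPM (ratio 0.769) and Slc25a51 at 30.7 TPM against 22.4 to 24.1 TPM (0.793). In Control + rFibcd1 replicate 2, the mouse with liver transcripts, Slc25a13 was at 7.72 TPM against 2.48 to 3.41 TPM (0.824), Slc25a15 at 14.96 TPM against 9.72 to 10.7 TPM (0.817) and Slc25a47 at 21.7 TPM against 4.66 to 7.25 TPM (0.848). In LLC + rFibcd1 replicate 2, Slc25a1 was at 108.8 TPM against 16.6 to 29.4 TPM (0.861) and Slc25a44 at 18.1 TPM against 14.7 to 15.3 TPM (0.831).

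LLC + rFibcd1 replicate 4 had the highest Slc25a11, at 313.6 TPM against 289.8 to 293.5 TPM (0.842), and the highest Slc25a15, at 10.4 TPM against 9.20 to 9.36 TPM (0.869). LLC + rFibcd1 replicate 1 had 173.2 TPM of Slc25a34 against 125.8 to 129.1 TPM (0.932). Control replicate 1 had 55.9 TPM of Slc25a25 against 4.80 to 15.9 TPM (0.783). Control replicate 3 had the lowest Slc25a37, at 9.40 TPM against 10.7 to 11.2 TPM (0.757).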

How the results depend on the processing

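In 44 gene changes, those of the members called in a comparison or, where none was, of the 5 with the smallest p, leaving out each mouse in turn changed no direction (692 fits kept the side of the threshold, 56 lost the call), and the other settings kept 323, lost 120 and reversed 1. Changes without a call in the main fit had none to lose and count as kept. The shares kept therefore overstate how often a call was kept. Other values were not recomputed. The reversed change was that of Slc25a14 in LLC minus Control, at -0.02528 after quantile normalization; the cause was not tested. Slc25a26 kept its call in LLC minus Control in all 17 fits that leave out a mouse and lost it with Dunn comparisons, the replicate block and the B cell score, with a log2 change of -0.59 to -0.29 over the 11 other settings.

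In LLC minus Control, 13 members became 0 with Dunn comparisons (12 at an unadjusted p under 0.05), 0 with the replicate block (14 unadjusted, and 5 genes in all) and 0 with the B cell score (8 unadjusted). They became 1 with the adipocyte score, and 1 (without LLC replicate 3) to 20 (without LLC replicate 2) when mice were left out. In LLC + rFibcd1 minus Control, 1 member became 2 with median-ratio scaling, 2 without mitochondrially encoded genes, 2 with the myofiber score, 0 with Dunn comparisons, 0 with only the 2 groups compared, 0 with the replicate block, and 1 to 3 when mice were left out. Slc25a26 also lost its call after quantile normalization, where another member was called. In LLC + rFibcd1 minus Control + rFibcd1, 2 members, both higher, became 1 without the filter, 1 with median-ratio scaling and 1 without mitochondrially encoded genes (in these 2 scalings another member, called lower), 0 after quantile normalization, 0 with the replicate block, 1 with the B cell score, 0 with the myofiber score, and 0 (without LLC + rFibcd1 replicate 2) to 6 (without Control + rFibcd1 replicate 1) when mice were left out. Dunn comparisons and a fit of only these groups were not run there. In tumor-bearing minus tumor-free, 13 became 1 with the B cell score, 8 with the adipocyte score and 6 with the myofiber score. The causes were not tested, and the replicate numbers share no stated animal, litter or day.

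The median log2 change of the members was -0.1234, -0.08314 and -0.2426 in LLC minus Control after median-ratio scaling, without mitochondrially encoded genes and after quantile normalization, and -0.01451 to 0.07924 when mice were left out. In LLC + rFibcd1 minus Control + rFibcd1 it was -0.09054 after median-ratio scaling, -0.1248 after quantile normalization, -0.05075 with the myofiber score and -0.04799 to 0.0834 when mice were left out. In tumor-bearing minus tumor-free it was -0.08961, -0.04473 and -0.1652 after median-ratio scaling, without mitochondrially encoded genes and after quantile normalization. In LLC + rFibcd1 minus LLC it was -0.0232 after median-ratio scaling, 0.06064 after quantile normalization, -0.03565 with the B cell score, -0.02803 with the adipocyte score, and -0.1422 to -0.0002731 when mice were left out. Quantile normalization gave -0.08252 in LLC + rFibcd1 minus Control and 0.07275 in the interaction, where the myofiber score gave -0.1636 and leaving out mice -0.135 to 0.005086. Members near 1 TPM rest on few reads, with a median of 81 for Slc25a14.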
